A study of Mus musculus with 9 samples.

Results

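These are 129 protein-coding genes whose RNA level in the postnatal mouse cochlea was at most 50% of the wild-type level when both copies of Pou4f3 carried the Δ mutation. They were chosen by their values: a mean of at least 1 FPKM (fragments per kilobase of transcript, scaled to library depth) in wild type, and a homozygous mean of no more than 50% of it. Of the 1137 genes listed for the homozygous mutants, 1013 were protein-coding and 175 met both thresholds. A further step set aside by symbol 46 genes, mostly known for hair cell channels, bundle links, calcium handling, synapses and identity, which left the 129. The wild-type and heterozygous tables held 51912 genes.

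Cochlear tissue of postnatal day 3 was sequenced in 9 libraries, 3 for each genotype of their titles. The titles say cochlear without naming the part dissected. WT here means Pou4f3(+/+), HET means Pou4f3(Δ/+), and HOM means Pou4f3(Δ/Δ). All 3 groups share the tissue and the age. The genotype field of the labels goes against the title in all 9 libraries, and the grouping follows the titles. Pou4f3 itself read 24.5 to 27.0 FPKM in the libraries titled WT, 21.7 to 25.6 in those titled HET, and 5.92, 1.36 and 9.39 in those titled HOM. The labels do not say what Δ removes, which strain was used or whether each library came from 1 animal or a pool, so p-values measure the spread between these libraries, which may be partly technical. The HOM table lists only 1137 genes, and in each of the 1109 that could be tested the HOM and WT libraries did not overlap (766 lower and 343 higher in HOM), so it holds a selection of genes.

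Pou4f3 encodes a POU-domain transcription factor that, in the inner ear, is made in hair cells, the mechanosensory cells of the organ of Corti. Hair cells without it begin to differentiate and are then lost around birth, and human mutations cause a dominant progressive deafness. A hair cell carries a bundle of actin-filled stereocilia that opens channels when bent, a microtubule-based kinocilium during development, and ribbon synapses at its base. In bulk tissue, fewer hair cells and less RNA per hair cell cannot be told apart, and that holds for every HOM value here.

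Fragment depths recovered from the FPKM steps were 14300000 to 17400000 fragments per library. The 129 genes had a median of 518 fragments summed over the 3 WT libraries (range 46 to 8903) and 169 over the 3 HOM libraries (range 2 to 4073). In the WT and HET libraries, HET 1 and WT 3 stood apart from the other 4 on the first principal component, which held 58.1% of the variance. All 22 supporting cell markers examined were expressed, with summed levels of 1935 to 2043 FPKM in WT and 1814 to 2107 in HET.

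The level kept, meaning the HOM mean as a percent of the WT mean, had a median of 30.4% and ran from 1.5 to 49.8%. It was under 10% for 11 genes, 10 to 20% for 15, 20 to 30% for 37, 30 to 40% for 28 and 40 to 50% for 38. Most of the genes were modest in this tissue: the median WT level was 2.89 FPKM, against 8.72 for all 12729 coding genes at 1 FPKM or more. A level of 10 FPKM was reached by 20 genes. Their median exonic length was 3311 bases, against 4480 over those coding genes. In HET the median level was also 2.89 FPKM. In all 129 genes every HOM library lay below every WT library. This is no result about them: 766 listed genes tested (69.1%) were lower in HOM, and all of these share the separation. limma, a linear model on log2(FPKM + 1) with Benjamini-Hochberg adjustment, called lower all 117 of the 129 that passed its filter on low values in HOM against WT (65.4% of listed genes tested). The rule used that contrast, so nothing is read from these counts. Leaving out WT 1, WT 2 or WT 3 left 78 of the genes past the filter, of which 70, 68 and 70 were called. The 46 genes set aside by name kept less, with a median of 19.3%, and had a higher median WT level of 7.62 FPKM.

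**Figure D1:**
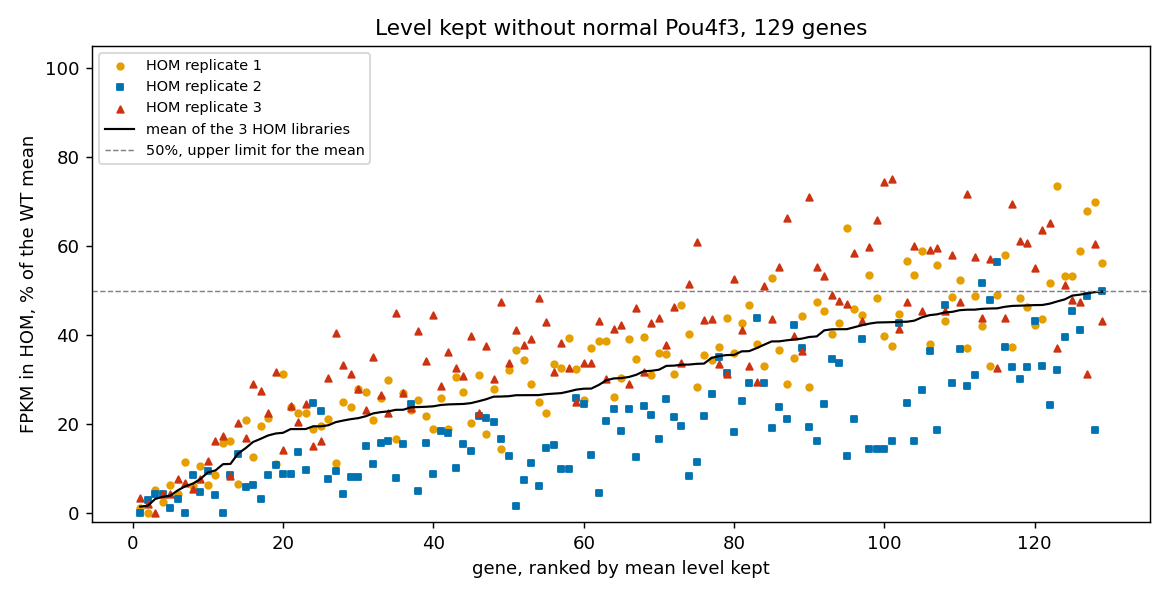
Level kept in each of the 3 HOM libraries as a percent of the WT mean (y axis), for the 129 genes ranked by their mean level kept (x axis). Symbols are single HOM libraries, the black line is the mean of the 3 and the dashed line is the 50% limit of the rule; HOM 2 lies lowest in 103 of the 129 genes, and single libraries of 42 genes lie above the dashed line.

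The genes were sorted by known role into 9 groups, by hand and after their values had been seen. Genes of the hair bundle, of hearing loss and of hair cell orientation formed 1 group of 10 with a median level kept of 23.8%. Cib2, a calcium-binding subunit of the mechanotransduction channel complex, was the most abundant of them, at 52.9, 57.4 and 68.4 FPKM in WT, 68.7, 52.1 and 56 in HET and 22.1, 17 and 42.7 in HOM (chr9:54544794-54560218, minus strand). It kept 45.7% ± 22.9 (SD over the 3 HOM libraries) and lay far higher in HOM 3 than in the other HOM libraries. Tomt, whose product brings channel subunits to the bundle, read 6.58, 6.2 and 6.5 FPKM in WT, 6.71, 5.89 and 5.63 in HET and 0.81, 0.41 and 1.87 in HOM (chr7:101898370-101906359, minus strand) and kept 16% ± 11.7.

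Baiap2l2, an I-BAR protein of stereocilia tips, read 7, 5.31 and 8.7 FPKM in WT, 8.35, 3.96 and 6.04 in HET and 0.46, 0.94 and 1.42 in HOM and kept 13.4% ± 6.85, the lowest share of the 10. Gipc3, a PDZ protein mutated in hereditary deafness, read 12, 12.8 and 13.8 FPKM in WT, 12.1, 12.7 and 13.4 in HET and 3.28, 0.65 and 5.27 in HOM, with HOM 2 at the bottom and HOM 3 at the top. Pjvk, which encodes the deafness protein pejvakin, differed from that order: its 3 HOM libraries read 1.28, 1.35 and 1.3 FPKM against 4.74, 4.83 and 6.93 in WT. Slc26a5, the outer hair cell motor protein prestin, read 1.7, 1.92 and 0.8 FPKM in WT, 1.26, 6.23 and 5.05 in HET and 0.46, 0.13 and 0.21 in HOM. Its WT 3 and HET 1 libraries were the lowest of their groups, and these are the libraries that stand apart. Chosen after their values were seen, Elmod1, a GTPase-activating protein needed for bundle maturation, kept 21.2%, Insc, a polarity protein of the hair cell apex, 39.6%, and Clrn2, a clarin of stereocilia, 41.1%.

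Another 8 genes are known from hair cell expression and had the highest levels of any group, with a median of 25.0 FPKM in WT and a median level kept of 26.8%. Pcp4, a small calmodulin-binding protein, was the most abundant of the 129 genes, at 133, 138 and 142 FPKM in WT, 165, 118 and 117 in HET and 49.6, 23.1 and 60.5 in HOM (chr16:96467606-96525793, plus strand). It kept 32.3% ± 14, and its HET 1 library was the highest of the 9. Ccer2, a coiled-coil glutamate-rich protein, read 63.1, 49.6 and 61.6 FPKM in WT, 63.6, 48.5 and 58.1 in HET and 15.8, 9.09 and 17.9 in HOM (chr7:28756174-28758968, plus strand) and kept 24.6% ± 7.93. Acbd7, an acyl-CoA-binding protein, read 30.2, 35.3 and 35.4 FPKM in WT, 40.6, 28.8 and 27.6 in HET and 8.42, 2.1 and 16.3 in HOM. Its 3 HOM libraries spanned the widest relative range among these genes, from 2.1 FPKM in HOM 2 to 16.3 in HOM 3.

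Strip2, a subunit of striatin-interacting phosphatase and kinase complexes, read 14.9, 16.6 and 12.4 FPKM in WT, 11.7, 18.8 and 16.8 in HET and 3.5, 1.28 and 3.53 in HOM and kept 18.9% ± 8.82, the least of the 8. Dlk2, a delta-like transmembrane protein, read 12.4, 12.2 and 18.8 FPKM in WT, 16.2, 10.8 and 13 in HET and 1.65, 1.37 and 5.86 in HOM and kept 20.5% ± 17.4. Lmod3, a leiomodin that nucleates actin filaments and is best known from skeletal muscle, read 17.6, 18.6 and 12.9 FPKM in WT, 12.4, 16.6 and 15.3 in HET and 5.33, 4.24 and 4.1 in HOM. Its HOM libraries lay close together. Fgf8, the inner hair cell signal that directs pillar cell differentiation, read 3.79, 4.98 and 5.93 FPKM in WT, 6.08, 3.66 and 4.29 in HET and 1.6, 0.49 and 1.88 in HOM and kept 27% ± 15. Tjap1, a protein of tight junctions, kept the most, 46.8% ± 7.15, at 36.5, 38.6 and 47 FPKM in WT, 39.8, 29.7 and 31.9 in HET and 17.2, 17.5 and 22.4 in HOM. After median-ratio scaling over the listed genes Tjap1 kept 54.7% and would no longer meet the 50% limit. The listed genes are a selection that differs between HOM and WT, so this scaling may take out part of that difference.

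A list of 57 hair cell genes outside the names set aside gives the wider setting. Of these, 19 were listed in HOM and 13 are among the 129, whose direction the choice of genes fixed. The 6 that were listed without reaching the limit are Cacna1d, Whrn, Anxa4, Tmie, Triobp and Pls1, which kept 61.7 to 90.4%. limma called them lower in HOM than in WT, against 65.4% of listed genes tested. In all listed genes tested the HOM and WT libraries did not overlap, so these calls are no separate evidence. The other 38 have no HOM value analysed here.

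**Figure D2:**
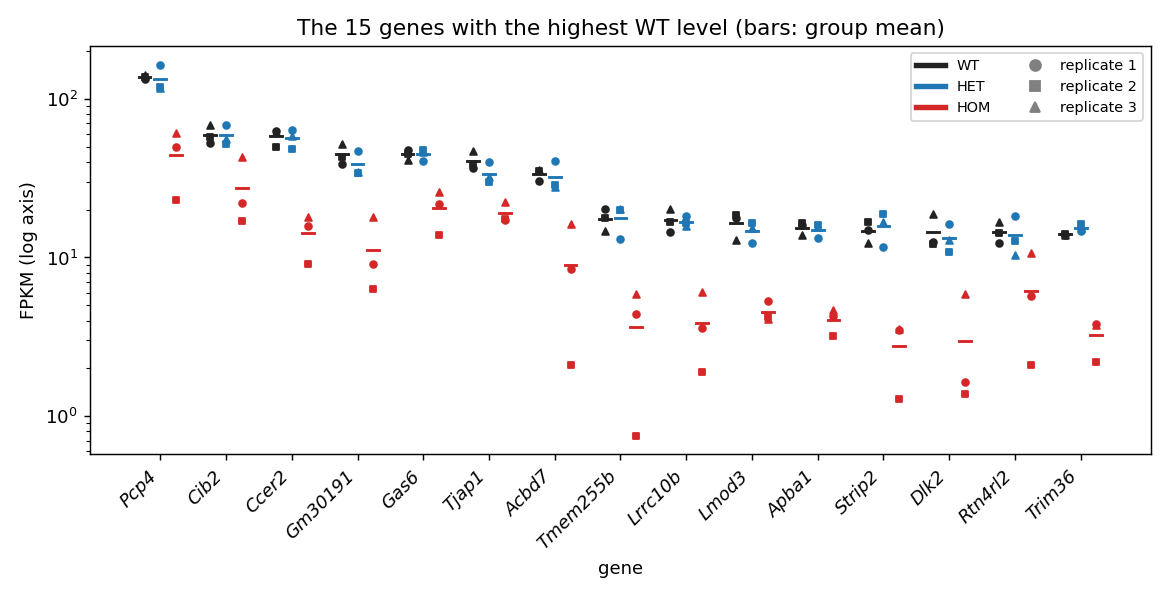
FPKM on a log axis (y axis) in each of the 9 libraries for the 15 genes with the highest WT mean (x axis), coloured by genotype; bars are group means and symbols mark the replicate number. Every HOM library lies below the WT libraries, HET and WT libraries overlap in all but Trim36, whose HET libraries lie above WT, and Pcp4 is the highest gene at 133 to 142 FPKM in WT.

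Genes of cilia and axonemes, the microtubule cores of cilia, made up 13 of the 129, with a median level kept of 38.6% and a median HET level of 109.0% of WT. They were lowly expressed, at 1.1 to 9.02 FPKM in WT. Ttc21a, a relative of an intraflagellar transport protein, read 4.43, 4.24 and 4.8 FPKM in WT, 4.33, 5.56 and 5.86 in HET and 1.01, 0.62 and 0.92 in HOM (chr9:119937606-119967793, plus strand) and kept 18.9% ± 4.55, the least of the group. Dnaic2, an intermediate chain of outer dynein arms, read 2.78, 3.05 and 3.81 FPKM in WT, 3.92, 2.84 and 2.96 in HET and 0.57, 0.69 and 1.21 in HOM (chr11:114727408-114757889, plus strand). Drc1, of the nexin-dynein regulatory complex, read 1.71, 1.71 and 1.68 FPKM in WT, 1.76, 1.73 and 1.87 in HET and 1.09, 0.22 and 0.8 in HOM and kept 41.4% ± 26.1. In Drc1 the 6 WT and HET libraries lay within 1.68 to 1.87 FPKM while the HOM libraries spread from 0.22 to 1.09. Spag6l, a protein of the central microtubule pair, read 1.73, 1.61 and 1.64 FPKM in WT, 1.91, 2.19 and 2.19 in HET and 0.71, 0.56 and 0.79 in HOM, with every HET library above every WT library.

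On a list of 22 motile cilium and axoneme genes, 14 were expressed in WT and HET, and 6 were listed in HOM. Dnaic2 and Drc1 are the 2 of them among the 129, so the choice of genes fixed their direction. The other 4, Cfap126, Rsph1, Ccdc39 and Cfap43, kept 52.8, 61.8, 72.8 and 78.8%. limma called them lower in HOM than in WT, as it did 65.4% of listed genes tested. Since HOM and WT libraries did not overlap in any listed gene tested, a call was likely beforehand and adds no separate evidence. WT levels on the list ran widely, from 0.01 FPKM for Dnah5 and 0.043 for Spag17 to 7.96 for Tekt1 and 10.8 for Tekt2. Foxj1, the transcription factor of motile cilia, was at 4.87.

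Synaptic, vesicle and neuronal genes numbered 16, with a median level kept of 37.5%. Apba1, a neuronal adaptor that binds the vesicle fusion protein Munc18, was the most abundant, at 16, 16.4 and 13.8 FPKM in WT, 13.3, 16 and 15.7 in HET and 4.3, 3.18 and 4.64 in HOM (chr19:23758887-23949596, plus strand), and kept 26.2% ± 4.96. Rtn4rl2, a receptor of the Nogo receptor family, read 12.3, 14.2 and 16.7 FPKM in WT, 18.4, 12.7 and 10.4 in HET and 5.75, 2.09 and 10.7 in HOM. Its HOM 3 value lay above the lowest HET value, so that HOM and HET overlapped. Lrtm2, a leucine-rich repeat membrane protein of neurons, kept the least of this group, 17.5% ± 7.72, at 3.28, 3.1 and 3.74 FPKM in WT, 3.27, 4.1 and 3.58 in HET and 0.72, 0.29 and 0.76 in HOM. Named after their values were seen, Ap3b2, the neuronal adaptor of endosomal vesicles, kept 26.8%, Camk2b, a calmodulin-dependent kinase, 38.6%, and Rimbp2, which tethers calcium channels to release sites, 44.5%. None of 22 neuroendocrine and vesicle release genes, which include Snap25, Syt1 and Stx1a, was listed in HOM. Of 20 genes on a list for spiral ganglion neurons 3 were: Prph2, Gata2 and Isl1. Prph2 is among the 129, so the choice of genes fixed its direction. It is best known from photoreceptors and was placed with those genes after its values were seen. limma called Gata2 and Isl1 higher in HOM. Most of the list, such as Tubb3 and Nefl, has no HOM value analysed here, so no direction is read for neurons.

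Ligands and their extracellular modulators numbered 8, with a median level kept of 39.6%. Gas6, the ligand of the TAM receptor kinases, was high at 47.8, 44.8 and 41.4 FPKM in WT, 40.4, 47.5 and 46.4 in HET and 21.8, 13.8 and 25.7 in HOM (chr8:13465374-13494490, minus strand) and kept 45.8% ± 13.5. Fam19a3, a chemokine-like protein, read 5.95, 5.45 and 6.59 FPKM in WT, 5.75, 4.68 and 5.77 in HET and 1.26, 0.35 and 1.02 in HOM and kept 14.6% ± 7.87. Kcp, an extracellular modulator of bone morphogenetic protein signals, read 4.04, 4.13 and 4.63 FPKM in WT, 3.48, 2.89 and 3.34 in HET and 1.8, 2.21 and 1.87 in HOM. It lay lower in all 3 HET than in all 3 WT libraries and kept 45.9%, or 53.8% after the median-ratio scaling over listed genes, with the limit given for Tjap1. Of the rest, named after their values were seen, Cxcl14, a chemokine, kept 23.3%, Trh, the precursor of thyrotropin-releasing hormone, 33.4%, and Dll4, a Notch ligand, 46.7%. Tac4, a tachykinin precursor, had 2 fragments over the 3 HOM libraries against 67 in WT, a ratio of 3.08% at equal depth with a counting interval of 0.365 to 11.6%.

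The 7 transcription factors had a median level kept of 32.0% and low levels of 1.04 to 4.04 FPKM in WT. Prdm12, a regulator of pain-sensing neurons, had the lowest level kept of them: it read 0.93, 0.92 and 1.26 FPKM in WT, 1.36, 1.42 and 1.69 in HET and 0.11, 0.05 and 0.08 in HOM (chr2:31640037-31655795, plus strand), from 9 fragments over the 3 HOM libraries against 119 in WT, a ratio of 7.79% at equal depth with a counting interval of 3.48 to 15.3%. The other 6, named after their values were seen, were Tal1, a factor of blood formation, at 24.5%, Skor1, a corepressor, at 26.5%, Casz1, a zinc-finger factor, at 32%, Nr4a3, an orphan nuclear receptor, at 33.4%, Msc at 33.6% and Tcf15 at 35.3%, the last 2 being bHLH factors of muscle and somite development. Beside Tal1, 1 of 9 erythroid markers measured was listed in HOM, Alas2, at 60.9% of WT, and their summed levels were 39.0 to 80.3 FPKM in WT and 23.9 to 65.1 in HET. The part of red blood cells in the Tal1 value was not tested.

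Genes best known from photoreceptors numbered 4, with a median level kept of 26.0%. Grk1, the rhodopsin kinase, read 2.8, 2.36 and 2.37 FPKM in WT, 2.42, 3.49 and 3.65 in HET and 0.49, 0.08 and 0.69 in HOM (chr8:13405081-13421951, plus strand) and kept 16.7% ± 12.4. Prph2, which shapes the rims of photoreceptor discs, read 1.02, 1.67 and 1.76 FPKM in WT, 1.98, 1.95 and 1.91 in HET and 0.28, 0.13 and 0.66 in HOM, with every HET library above every WT library. Samd11, a nuclear protein of photoreceptors, went the other way, at 1.06, 1.36 and 1.22 FPKM in WT, 1.01, 0.5 and 0.66 in HET and 0.45, 0.16 and 0.41 in HOM, with every HET library below every WT library. Rdh12, a retinol dehydrogenase named after its values were seen, kept 33.2%.

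Enzymes, including those of glycosylation, numbered 19, with a median level kept of 26.5%. Trim36, a ubiquitin ligase, was the most abundant, at 13.8, 14.1 and 13.9 FPKM in WT, 14.7, 16.3 and 15.3 in HET and 3.79, 2.19 and 3.77 in HOM, and kept 23.3% ± 6.57. Fam57b, a ceramide synthase, kept 17.9% ± 12 and read 4.42, 5.18 and 6.35 FPKM in WT, 5.01, 3.93 and 2.89 in HET and 0.59, 0.58 and 1.69 in HOM. St8sia3, a sialyltransferase of brain glycoconjugates, kept 18.9% ± 8 with WT libraries at 4.48, 4.57 and 4.15 FPKM, and Tmprss7, a membrane serine protease, kept 19.5% ± 4.88 with WT libraries at 2.09, 1.98 and 2.12 FPKM. Mmp24, a membrane-type metalloproteinase, read 5.87, 5.56 and 5.93 FPKM in WT, 6.16, 6.61 and 6.06 in HET and 2.66, 1.22 and 3.38 in HOM.

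Several of the 129 genes are best known from skeletal muscle: besides Lmod3, the phosphatase-like Dusp27 kept 11% and, named after their values were seen, the glycolytic enzyme Pgam2 30.6% and the ADP-ribosyltransferase Art1 26.3%. Of 15 skeletal muscle markers, 2 were listed in HOM, Smpx and Xirp2, both hair cell genes too and set aside by name. Without these and Pvalb, which hair cells also make, the other 12 summed to 10.8 to 13.9 FPKM in WT and 13.1 to 14.7 in HET. Among them 9 were under 1 FPKM in WT, including Ckm at 0.03 and Acta1 at 0.043. The others were Des at 6.45, Casq1 at 2.42 and Mylpf at 1.25 FPKM. The part of muscle tissue in these values was not tested.

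The largest group, 44 genes of other or little-known function, had a median level kept of 31.8% and held the lowest values of all. Gm30191, a predicted gene, was the most abundant of the 44, at 39, 43.1 and 52 FPKM in WT, 47.1, 34 and 34.5 in HET and 9.07, 6.29 and 17.9 in HOM (chr4:134246935-134250042, plus strand), and kept 24.8% ± 13.5. Tmem255b, a membrane protein, read 20.2, 17.9 and 14.7 FPKM in WT, 13.1, 19.8 and 20.2 in HET and 4.38, 0.75 and 5.86 in HOM, and Lrrc10b, a leucine-rich repeat protein, read 14.4, 16.8 and 20.1 FPKM in WT, 18.2, 16.4 and 15.9 in HET and 3.6, 1.9 and 6.02 in HOM. Both lay lowest in HOM 2. Among genes at 2 FPKM or more in WT, the lowest levels kept were those of 4930558C23Rik at 6.67% ± 1.68, Gm32742 at 9.63% ± 6.05, Dusp27 at 11% ± 9.59 and Lrrc3c at 11.1% ± 4.42. Dusp27 was listed at 0 in HOM 2. Slc7a14, of the cationic amino acid transporter family, kept 19.5% ± 3.38 and was highest in HOM 2.

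At lower levels, Cdcp2, a CUB-domain protein, had 4 fragments over the 3 HOM libraries against 258 in WT, a ratio of 1.6% at equal depth with a counting interval of 0.432 to 4.14% (chr4:107096891-107113125, plus strand), the lowest level kept of the 129. Kif28, a kinesin named after its values were seen, had 5 fragments over the 3 HOM libraries against 319 in WT, a ratio of 1.61% at equal depth with a counting interval of 0.521 to 3.81%. Gm1113, a predicted gene, had 5 fragments over the 3 HOM libraries against 133 in WT, a ratio of 3.87% at equal depth with a counting interval of 1.24 to 9.27%, and Ttc34, a tetratricopeptide repeat protein, had 27 fragments over the 3 HOM libraries against 294 in WT, a ratio of 9.46% at equal depth with a counting interval of 6.13 to 14.1%. These exact 95% intervals cover counting error only. In 7 of the 129 genes the 3 HOM libraries together held 10 fragments or fewer, and 5 genes were listed at 0 in at least 1 HOM library, so the levels kept of these genes are coarse.

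**Figure D3:**
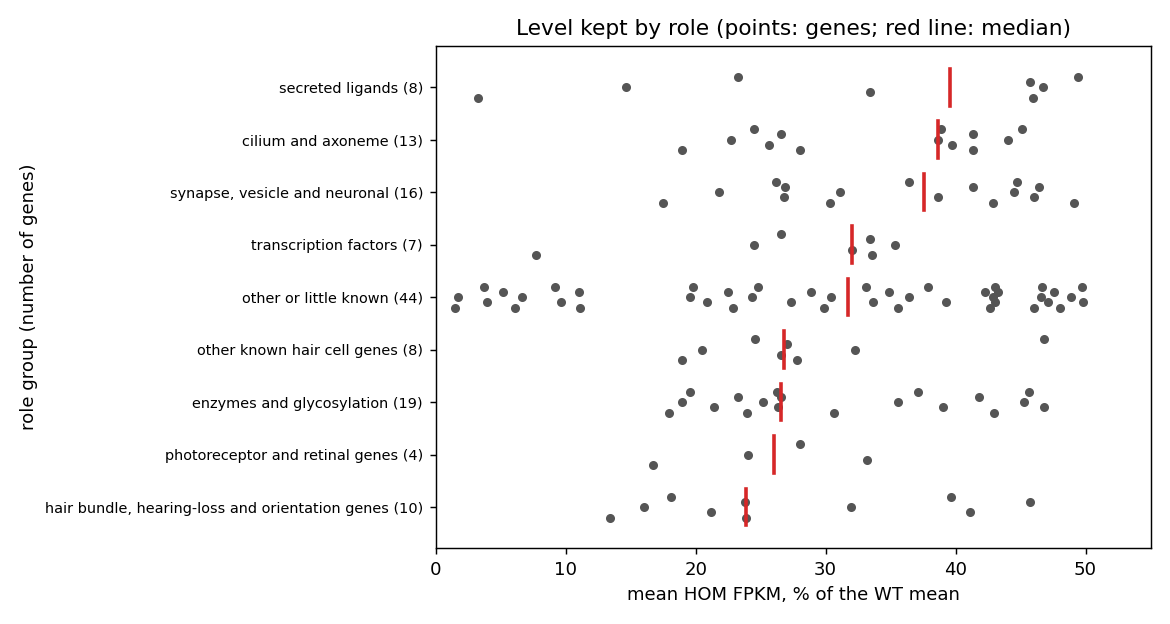
Mean HOM level as a percent of the WT mean (x axis) for each of the 129 genes (points), by role group with its number of genes (y axis); red lines are group medians. Medians run from 23.8% in the 10 hair bundle genes to 39.6% in the 8 ligands, and the ranges of the groups overlap.

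The 3 HOM libraries did not lose these genes evenly. The median level kept was 33.2% in HOM 1, 18.2% in HOM 2 and 39.1% in HOM 3. HOM 2 alone was lowest in 103 of the 129 genes, or 79.8%, against 40.3% of the 529 listed coding genes that were lower in HOM than in WT without reaching the 50% limit. HOM 3 alone was highest in 59.7%, against 35.9% of those genes, and 71 genes followed the order HOM 2, HOM 1, HOM 3. Pou4f3 itself followed that order, and so did the 46 genes set aside by name, with medians of 5.7% in HOM 2, 19.4% in HOM 1 and 25.3% in HOM 3. HOM 2 was lowest in 15 of 16 synaptic genes, 11 of 13 cilium genes and 8 of 10 hair bundle genes, and in 5 of the 8 ligands. It was the highest of the 3 in 10 genes, such as Slc7a14 and Kcp. Single HOM libraries lay above 50% of the WT mean for 17 genes in HOM 1, 2 genes in HOM 2 and 29 in HOM 3.

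The heterozygous libraries, which took no part in choosing the genes, read close to WT. The HET mean was between 80 and 125% of the WT mean in 104 of the 129 genes, with a median of 98.6%, and no gene was at 50% or less. limma called 0 of the 128 genes tested, as it called 0 of all 15391 genes (0%), and 3 of the 128 had an unadjusted p under 0.05, against 1.73% of all genes. The median difference was -0.01 on the log2(FPKM + 1) scale, against 0.00 over all genes tested. The WT values of this comparison did help to choose the genes, which favours genes high in WT. F12 did not pass the filter. Slc26a5 had the highest HET level of the 129 relative to WT, 283.7%, with a difference of 0.93 ± 0.45 (SE), an unadjusted p of 0.0796 and an adjusted p of 1 in limma, and its HET and WT libraries overlapped. Without HET 1 and WT 3, its HET libraries read 6.23 and 5.05 FPKM and its WT libraries 1.70 and 1.92.

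HET and WT libraries did not overlap in 15 genes: 8 were lower in every HET library (3.12% of all genes tested are) and 7 were higher (2.82%). The lower ones included Kif21b, a neuronal kinesin, at 2.75, 3.15 and 3.08 FPKM in HET against 4.03, 4.44 and 4.2 in WT. Its difference in limma was -0.39 ± 0.09 (SE) with an unadjusted p of 0.0039 and an adjusted p of 1, and its HOM libraries lay lower again at 1.1, 0.99 and 1.75 FPKM. Kcp differed by -0.31 ± 0.10 (SE), unadjusted p 0.0166 and adjusted p 1. Gm1113, Samd11, Ttc34 and Cdcp2 stood at 58.4%, 59.6%, 71.1% and 76.4% of WT in HET.

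In the other direction, Prdm12 stood at 144% of WT in HET while it kept 7.72% in HOM. Pdzk1ip1, a small membrane protein, read 6.18, 5.29 and 6.69 FPKM in WT, 7.3, 6.98 and 7.67 in HET and 2.08, 1.62 and 2.64 in HOM and differed between HET and WT by 0.24 ± 0.10 (SE), unadjusted p 0.0464 and adjusted p 1. Prph2, Spag6l, Trim36 and Mmp24 stood at 131%, 126%, 111% and 108%. Each of these 12 genes thus lay outside the WT range in HET without passing the adjusted test.

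**Figure D4:**
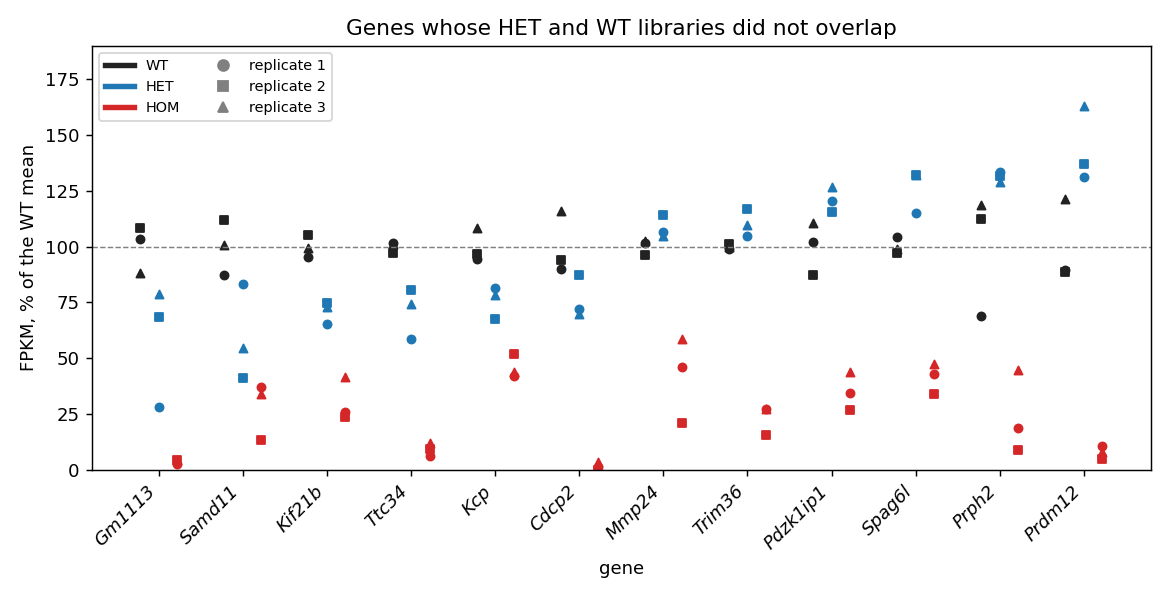
FPKM as a percent of the WT mean (y axis) in each library for 12 of the 15 genes whose 3 HET and 3 WT libraries did not overlap (x axis), the 6 largest differences in each direction. Colours are genotypes and symbols replicates; the HET libraries of Gm1113 to Cdcp2 lie below those of WT, those of Prdm12 to Mmp24 above, and HOM lies lowest in all 12.

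The libraries WT 3 and HET 1 lay together in some genes. Both lay below the other 4 WT and HET libraries in 27 of 128 genes tested (21.1%, against 25.2% of all genes tested) and above them in 31 (24.2%, against 31.4%). Slc26a5, Strip2, Tmem255b and Slc7a14 were among the lower, Baiap2l2, Dlk2, Rtn4rl2 and Fgf8 among the higher. With both libraries left out, an alternative chosen after seeing the data, limma again called 0 of these genes in HET against WT and the median difference was 0.00.

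Against HET the HOM levels gave much the same picture, with the same HOM libraries and so no separate evidence. The median HOM mean was 30.3% of HET, and all HOM libraries lay below all HET libraries in 124 genes, against 46.2% of listed genes tested. Of 115 genes tested, limma called 112 lower, against 36.3% of listed genes. Leaving out HET 1, HET 2 or HET 3 brought this to 64, 47 and 40 of the 78 genes that then passed the filter. The exceptions over all libraries, Rtn4rl2, Mansc4 and Wfdc12, had adjusted p of 0.0796, 0.0717 and 0.195. In 12 genes HOM kept more than 50% of the HET mean, up to 63.4% in St8sia5.

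At the limit of the rule, the genes just inside were Gdf6 at 49.4%, Mansc4 at 49.7% and Fry at 49.8%. Mansc4 read 4.59, 1.23 and 3.98 FPKM in HOM against 6.39, 6.66 and 6.67 in WT. Just outside were Slc12a5, Rem1 and Cables1, all at 50.2%, with Cables1 at 1.52, 2.36 and 2.45 FPKM in HOM against 3.94, 4.1 and 4.57 in WT. The values on either side differ by less than the spread of the HOM libraries.

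Some of the 129 genes are neighbours in the mouse genome (GRCm38, GENCODE M21). On chromosome 17, Lrrc73, Tjap1 and Dlk2 lie in a row with gaps of 0.5 and 14.4 kb, and kept 46.6, 46.8 and 20.5%. On chromosome 8, Grk1 lies 13.2 kb from Tmem255b, whose exons overlap those of Gas6, and the 3 kept 16.7%, 20.9% and 45.8%. On chromosome 4, Tal1 and Pdzk1ip1 lie 17.0 kb apart. 1700001C02Rik, a gene of little-known function at 6.09%, lies 4.1 kb from Otof, the hair cell exocytosis gene set aside by name, which kept 2.2%, and Drc1 lies 0.4 kb from the other end of Otof. Art1 overlaps Chrna10, an acetylcholine receptor subunit of hair cells that kept 10.6%.

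Such pairs bear on the values, because no source used here says whether the counting used strand. In 41 of the 129 genes an annotated exon overlaps one of another gene, among them Cib2, Pcp4, Ccer2, Dlk2, Tomt, Gas6, Tmem255b, Art1 and Apba1, and reads from overlapping stretches cannot be told apart. By chromosome the 129 genes were spread much as coding genes are, with 14 on chromosome 2 (10.9% against 8.0%) and 1, Tmem255a, on the X (0.8% against 3.4%).

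Promoter sequences, from 250 bases before to 50 after an annotated start (RefSeq, GRCm38.p6), were in the reference table for 100 of the 129 genes. They were searched on both strands for letters bound by POU4 factors (TAATTAAT and TGCATAAT) and for a pair of E-boxes, the sites of bHLH factors such as the hair cell factor Atoh1 (CAGATG and CAGCTG, which cannot overlap each other, while the POU4 words can). TAATTAAT and TGCATAAT were in 0 of the 100 genes, and in 0.55 and 0.38% of 10102 coding genes and 0.85 and 0.59% of all 32851 promoters. At shares this low, 0 of 100 does not set these genes apart, and sequence farther from the start was not searched. CAGATG was in 26 genes (26.0%, against 13.44% of coding genes and 17.15% of promoters) and CAGCTG in 28 (28.0%, against 18.04% and 16.3%). At least 1 of the 2 was in 43 genes and both were in 11. These shares are descriptions with no test, genes with several annotated starts had more than 1 window, and a match is neither a site nor a cause.

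The windows below show the E-box words, in capitals, with their flanks in genes described above, outside annotated exons and 5′ to 3′ on the strand of the gene. CATCTG is CAGATG read from the other strand.
Ccer2, chr7:28755992-28756077, plus strand: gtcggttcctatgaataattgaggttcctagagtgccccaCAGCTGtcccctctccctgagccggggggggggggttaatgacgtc
Dlk2, chr17:46297233-46297315, plus strand: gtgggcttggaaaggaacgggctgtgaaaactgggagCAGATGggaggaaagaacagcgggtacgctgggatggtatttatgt
Tomt, chr7:101903822-101903907, minus strand: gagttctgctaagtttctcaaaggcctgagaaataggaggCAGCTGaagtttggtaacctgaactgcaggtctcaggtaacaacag
Drc1, chr5:30281174-30281259, plus strand: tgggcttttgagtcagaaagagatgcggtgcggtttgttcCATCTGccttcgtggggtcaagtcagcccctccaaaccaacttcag
Gas6, chr8:13494664-13494749, minus strand: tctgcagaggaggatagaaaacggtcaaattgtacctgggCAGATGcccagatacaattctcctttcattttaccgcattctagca
Gm30191, chr4:134246827-134246912, plus strand: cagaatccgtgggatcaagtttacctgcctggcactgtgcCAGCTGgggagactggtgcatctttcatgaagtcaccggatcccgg
Cdcp2, chr4:107096767-107096852, plus strand: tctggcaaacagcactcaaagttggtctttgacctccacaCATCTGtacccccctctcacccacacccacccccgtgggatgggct
Pdzk1ip1, chr4:115088587-115088672, plus strand: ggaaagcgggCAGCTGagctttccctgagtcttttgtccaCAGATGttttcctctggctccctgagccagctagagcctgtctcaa
The Pdzk1ip1 window holds both words. The Tomt window lies inside the span given above for that gene, before a start annotated within it. The genes with these windows, a pick of those found, kept from 1.5% (Cdcp2) to 45.8% (Gas6). Whether the words go with the level kept was not tested.

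The other cell type lists held few of the 129 genes. No supporting cell, glial, stria vascularis, fibrocyte, bone, erythroid, immune, muscle, brain or endothelial marker was among them. This absence was largely fixed beforehand and is no result about cell types, because few of these markers were listed in HOM. The glial, stria vascularis, erythroid, immune and brain lists had 1 listed gene each. The muscle markers Smpx and Xirp2 met both thresholds but were set aside by name. Of 22 supporting cell markers 5 were listed in HOM, where limma called Epyc, Gjb2, Gjb6 and Gata3 higher, at 112 to 137% of WT, and Jag1 lower, at 75.5%. No bone, endothelial or cell cycle marker was listed in HOM. Whether the HOM cochleae held a different share of these cells was not tested, since most of their markers have no HOM value analysed here.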

How the data were processed

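RNA-seq was measured in 9 mouse cochlear libraries, 3 each of WT, HET and HOM. The deposited values are FPKM per gene; per the submitters' processing notes DESeq2 and the build mm8 were used, while the aligner, the counting, its use of strand and the annotation are unstated. Gene IDs were matched to GENCODE M21 (51633 of 51912), from which type, exonic length and GRCm38 coordinates were taken; no coordinate was converted. Fragment depth (14300000 to 17400000 per library) was recovered from low values, which were whole within 0.1 fragments for 97.9 to 100% of them; the HOM depths rest on 32 to 40 values each. Because the files hold FPKM, log2(FPKM + 1) was fitted with limma 3.58.1 (R 4.3.3) with a mean-variance trend, two-sided, per pair of groups, over genes that reached 1 FPKM in 3 or more of the 6 libraries, with Benjamini-Hochberg adjustment over all of them and a threshold of 0.05. The code was tested on simulated data.

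The genes, lists and roles were chosen with earlier results of these data known. Named with values were the 15 genes highest in WT, the 15 with the lowest level kept at 2 FPKM or more in WT, the 6 largest differences in each direction among genes whose HET and WT libraries did not overlap, members of the fixed lists, and 3 genes on each side of the limit. The libraries that stand apart were named after a principal component analysis. Alternatives changed the pseudocount, filter, trend, scaling, block, thresholds of the rule and libraries used. The values of 1 of the genes are not reported here.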

Additional observations from a re-analysis of the deposited data

How the results depend on the processing

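HET against WT gave 0 called genes under every alternative, with medians of -0.02 to 0.00 on the log2 scale and a smallest adjusted p of 0.17 in limma, reached with WT 3 and HET 1 both left out (0.391 to 1 in the other alternatives). The count called lower in HOM against WT was 117 and ranged from 68 to 117 when a replicate was left out. In HOM against HET it was 112 and ranged from 40 to 109. Both were lowest without a WT or a HET library, when only 78 genes passed the filter, and the cause of the rest of the drop was not tested. Other settings gave 100 to 129 and 99 to 121. With the replicate number as a block the counts were 0, 117 and 104. No label says that a number marks a shared animal or batch. Same-numbered libraries correlated at -0.52, 0.29 and -0.47 for HET and WT. The values were 0.25, 0.09 and 0.28 for HOM and WT, and -0.32, 0.09 and -0.16 for HOM and HET. In no comparison did all 3 pairs exceed 0.1, and the numbers were not taken as pairs. In HOM against WT, however, each HOM library correlated best with the WT library of its own number, and the block left the count there at 117.

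The median change of all listed genes in HOM against WT was -0.22, and -0.03 and 0.00 after median-ratio and upper-quartile scaling, when 97 and 93 of the 129 genes met the rule. Both scalings used only the listed genes, which were selected for a difference between HOM and WT. They may therefore remove part of that difference, and are not a plain correction for depth. Limits of 2 FPKM, 40% and 60% gave 88, 91 and 175 genes. Leaving out 1 library gave 108 to 146 genes, with a median level kept of 27.2 to 33.5%. No named gene changed direction, which for the level kept the rule itself makes nearly certain. The genes named for HET were picked because their HET and WT libraries did not overlap, which makes their direction nearly certain too. Over all alternatives, 526 results of single genes stayed the same, which for HET against WT means only the same direction and the same call. In 16 the level kept shifted by at least its SD over the HOM libraries. Of the main counts and medians, 66 stayed the same and 6 moved.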
